A study of Mus musculus with 4 samples.

Results

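The 36 genes described here encode the subunits of the transcription factor NF-kB, the I-kB proteins that hold it back, the kinases and adaptors that switch it on, and genes that it induces as feedback. They were chosen by symbol from a list of these classes, a rule that takes no measured value, and all 36 were found among the 27179 NCBI gene identifiers of the deposited count table. All 36 also passed the filter on low counts and stood among the 11841 genes tested. The table holds RNA sequencing of group 2 innate lymphoid cells (ILC2s) that were sorted out of the colon of 4 mice of the C57BL/6J strain, of which 2 ate a control diet and 2 a high-fiber diet, with 1 mouse per library. ILC2s are tissue lymphocytes without antigen receptors that release type 2 cytokines. Neither the kind of fiber, the time on the diet, the age of the mice nor the gates of the sort are given in the labels.

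NF-kB is a family of dimers built from the subunits Rela, Rel, Relb, Nfkb1 and Nfkb2. In the canonical arm, receptors for IL-33, IL-1, TNF or microbial products signal through adaptors to the IKK kinase complex, which marks I-kB proteins for destruction and frees the dimers to enter the nucleus. In the non-canonical arm, the kinase encoded by Map3k14 leads to processing of the Nfkb2 precursor and release of dimers with Relb. Among the genes that NF-kB induces are its own brakes, such as Nfkbia, Nfkbie and Tnfaip3, so their transcripts are often read as a trace of recent signalling. In ILC2s the IL-33 receptor uses this route through Myd88.

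Library totals were 30406730 and 20253987 counts in control libraries 1 and 2, and 29263068 and 20750263 in high-fiber libraries 1 and 2. A principal component with 45.8% of the variance set 1 mouse off: high-fiber library 2 scored 116 on it, high-fiber library 1 -10.0 and the control libraries -59.3 and -46.7. The 12 ILC2 marker genes, such as Gata3, Il1rl1 and Il7r, had counts in every sort and summed to 13703 to 16149 CPM (counts scaled to equal library size) on the control diet and to 17176 to 18165 CPM on the high-fiber diet. Of the 4 epithelial markers, Krt8, Krt20 and Vil1 had 0 counts in all libraries, where a 0 allows up to 3 counts per library. Epcam, the remaining epithelial marker, was detected in every library, with a range from 25.1 CPM (control library 1) to 36.9 CPM (high-fiber library 2).

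Stretches of DNA before the start sites of 5 of the genes are printed here because they hold the letters that NF-kB dimers are known to bind, and because these genes span the values found below, from Nfkbid, with the lowest fold change of the set, to Rel, which lay above 0. They come from RefSeq on GRCm38.p6, on the strand of the gene, 5′ to 3′, and overlap no exon of the GENCODE annotation. Capitals mark matches to the degenerate kappa B consensus on either strand, with overlapping matches joined.
Nfkbid, chr7:30422156-30422259, plus strand: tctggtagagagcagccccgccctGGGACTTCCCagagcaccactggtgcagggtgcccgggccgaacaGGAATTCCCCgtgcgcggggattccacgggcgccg
Nfkbia, chr12:55492648-55492701, minus strand: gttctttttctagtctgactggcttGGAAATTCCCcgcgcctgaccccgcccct
Nfkbie, chr17:45555569-45555628, plus strand: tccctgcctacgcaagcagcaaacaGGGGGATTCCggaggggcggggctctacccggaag
Rel, chr11:23771026-23771086, minus strand: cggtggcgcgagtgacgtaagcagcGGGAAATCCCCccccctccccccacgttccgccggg
Tnip1, chr11:54962962-54963023, minus strand: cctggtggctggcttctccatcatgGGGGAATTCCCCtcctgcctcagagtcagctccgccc

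The Nfkbia match lies 29 to 20 bases before the start site, and the Nfkbid stretch belongs to a start site inside the gene. Of the 29 genes with a promoter entry, 11 (37.9%) held the kappa B consensus in the 250 bases before a start site, against 8.23% of all 27025 genes with an entry. The AP-1 motif TGANTCA was found for 4 of the 29 (13.8%), namely Nfkb2, Nfkbie, Ikbkg and Tnfaip3, against 7.82% of all genes. Its matches did not overlap those of the kappa B consensus. Both strands were searched, and a match describes letters in a window, not binding. Nfkb1, Relb, Nfkbiz, Ikbkb, Map3k8, Malt1 and Cd83 had no entry in that table.

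The diet comparison asked which transcripts of this pathway differed with the diet. The 2 genes with the smallest p in the set went opposite ways: Nfkbid, a nuclear I-kB gene, was 2.58-fold lower on the high-fiber diet, and Cd83, an activation marker of lymphocytes and dendritic cells, was 2.29-fold higher. Nfkbiz, the other nuclear I-kB gene of high level, and Myd88, the adaptor of IL-1 family and Toll-like receptors, were also lower, and the subunit gene Rel was higher. With edgeR (quasi-likelihood test, adjusted by Benjamini-Hochberg over 11841 genes) 0 of the 36 passed at an adjusted p under 0.05 (smallest 0.444), where 0.0338% of all tested genes did. At an unadjusted p under 0.05, 2 of the 36 were higher (5.56%, against 4.70% of tested genes) and 3 were lower (8.33%, against 4.10%), 13.9% together against 8.80%. DESeq2 called Cd83 higher and Nfkbid lower (1.28% and 0.635% of the genes it tested), and limma-voom called 0 of the 36. Log2 fold changes were below 0 for 24 of the 36 (66.7%), against 51.2% of tested genes. Their median was -0.20 beside -0.016 over all tested genes. The count below 0 was 23 to 26 under other scalings. It was 19 without control library 1, 20 without high-fiber library 2, 26 without high-fiber library 1 and 28 without control library 2. Single mice moved these figures: the median was -0.066 without control library 1, -0.063 without high-fiber library 2 and -0.37 without high-fiber library 1, beside 0.041, -0.032 and -0.087 over all genes tested in those fits. Without high-fiber library 1, 10 of the 36 were lower at an unadjusted p under 0.05, where 6.55% of all tested genes were. The 2 diets did not overlap for 4 genes with both high-fiber libraries above (11.1%, against 18.5% of tested genes) and for 8 with both below (22.2%, against 19.6%), so these shares were near or under the background.

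**Figure D1:**
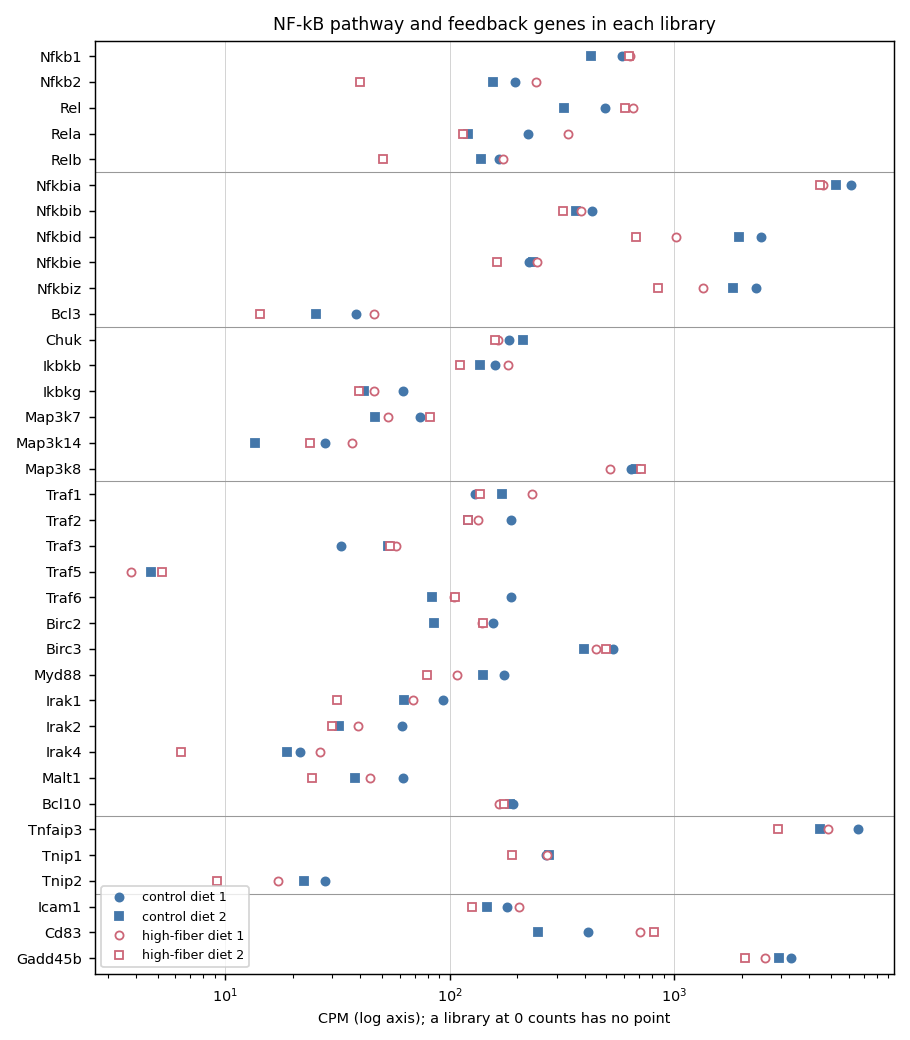
Level of each of the 36 genes in CPM (log axis) in the 4 libraries, with genes in rows grouped by class, filled blue marks for the control diet and open red marks for the high-fiber diet. Nfkbid, Nfkbiz and Cd83 show separate diets, while for Nfkb2, Relb and Irak4 the 2 high-fiber libraries lie on either side of both control libraries.

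Among the I-kB genes, Nfkbid (NCBI gene 243910, chromosome 7 from 30421731 to 30428749 in GRCm38) encodes IkBNS, a nuclear I-kB protein that binds NF-kB at its target genes. On the control diet it stood at 2443 CPM in library 1 and 1957 CPM in library 2, and on the high-fiber diet at 1025 and 676 CPM in the same order, which is kept for every gene below. Both high-fiber libraries were below both control libraries, and the gap between the diets was wider than the gap between mice of a diet. Its log2 fold change was -1.37 ± 0.28 (SE), with a 95% interval from -2.03 to -0.71 and an edgeR adjusted p = 0.444. Its DESeq2 adjusted p was 3.33e-04. Bulk counts cannot tell fewer cells that carry a transcript from less of it per cell.

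Nfkbiz (NCBI gene 80859, chromosome 16 from 55811375 to 55838954) encodes IkB-zeta, a nuclear I-kB protein induced by IL-1 family and Toll-like receptor signals that acts as a co-activator. It stood at 2312 and 1833 CPM on the control diet and at 1347 and 848 CPM on the high-fiber diet. Again both high-fiber libraries were below both controls, by a smaller margin (-0.92 ± 0.29, edgeR adjusted p = 0.456). The DESeq2 adjusted p was 0.0826.

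Nfkbia, the classical cytoplasmic inhibitor and the most abundant of the 36 genes per kilobase of exon, stood at 6136 and 5256 CPM on the control diet and at 4608 and 4465 CPM on the high-fiber diet. The diets did not overlap, but the difference was small (-0.33 ± 0.23, 95% interval from -0.87 to 0.21). Of the other cytoplasmic inhibitors, Nfkbib ranged from 321 to 429 CPM and Nfkbie from 162 to 245 CPM over the 4 libraries, with overlapping diets. Bcl3, a nuclear I-kB gene of low level, stood at 38.2 and 25.5 CPM on the control and at 46.2 and 14.3 CPM on the high-fiber diet, so the high-fiber mice lay on either side of the controls. All 6 I-kB genes had log2 fold changes below 0 under each scaling tried, yet 4 of 6 did without high-fiber library 2 and 5 of 6 without control library 1.

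Ratios within a library do not depend on how libraries are scaled. The Nfkbid level per kilobase was 0.281 and 0.263 of that of Nfkbia on the control diet, and 0.157 and 0.107 on the high-fiber diet. For Nfkbiz the ratios to Nfkbia were 0.144 and 0.133 against 0.111 and 0.0725. Both genes were thus lower relative to Nfkbia in each high-fiber library than in any control library, which did not hold for Bcl3, since its CPM was highest in high-fiber library 1, where Nfkbia lay below both controls.

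**Figure D2:**
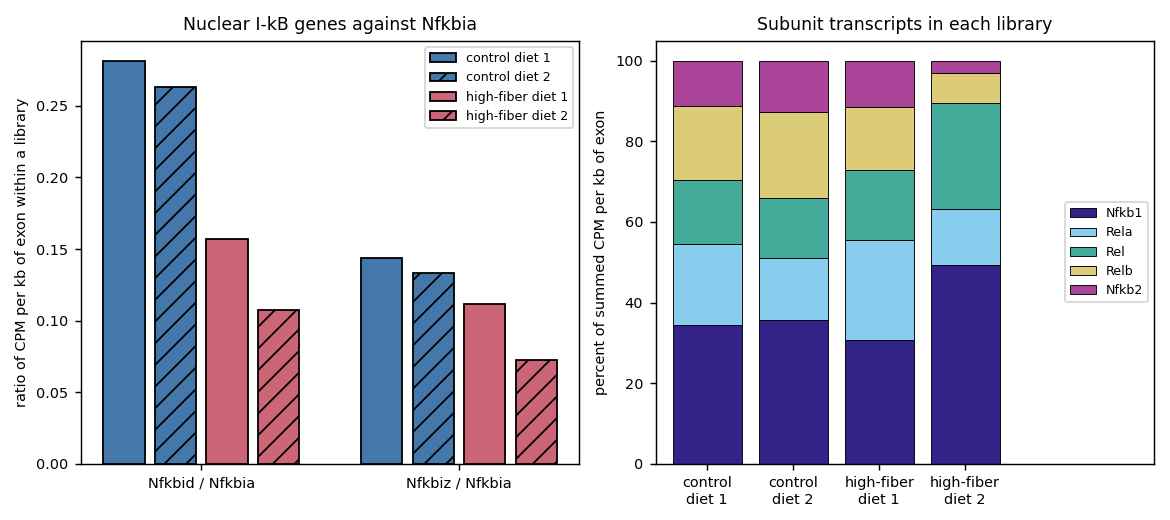
Left, ratio of Nfkbid and of Nfkbiz to Nfkbia, each in CPM per kilobase of exon, as 1 bar per library; right, share of each subunit gene in the summed CPM per kilobase of the 5 subunits, as 1 stacked bar per library. The ratios are lower in both high-fiber libraries, and the Nfkb2 and Relb shares are small in high-fiber library 2 alone.

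Immediate early genes, which are switched on within minutes of stimulation and also by cell isolation, moved with these I-kB genes. Of 24 such genes, 21 (87.5%) had log2 fold changes below 0, against 51.2% of tested genes, with a median of -0.57. At an unadjusted p under 0.05 by edgeR, 11 were lower (45.8%, against 4.10% of tested genes), and 0 passed after adjustment. DESeq2 called 8 lower, where it called 0.635% of the genes it tested lower. Summed, they stood at 49484 and 43504 CPM on the control diet and at 31733 and 24305 CPM on the high-fiber diet. Egr1, a zinc finger transcription factor with the smallest p of the list, went from 599 and 787 CPM to 189 and 134 CPM. Fos, a subunit of AP-1, went from 6405 and 6023 CPM to 3153 and 2422 CPM. The part of this response in the values of Nfkbid and Nfkbiz was not tested. Of 10 heat shock genes, 9 (90%, against 51.2% of tested genes) also had log2 fold changes below 0 (median -0.47). Their sum followed another order, with 9688 CPM in control library 2 and 3690 to 4381 CPM in the other 3 libraries.

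The A20 complex removes and edits the ubiquitin chains that activate IKK. Tnfaip3, which encodes A20 itself, stood at 6614 and 4468 CPM on the control diet and at 4862 and 2913 CPM on the high-fiber diet. The diets overlapped, because high-fiber library 1 exceeded control library 2 (-0.51 ± 0.33, edgeR adjusted p = 0.748). Tnip1, an A20-binding protein, lay between 269 and 276 CPM in 3 libraries and at 189 CPM in high-fiber library 2. Tnip2, a low-level member of the same family, stood at 27.8 and 22.5 CPM against 17.2 and 9.18 CPM without overlap (-0.90 ± 0.47, edgeR adjusted p = 0.671). All 3 log2 fold changes of this class were below 0 under every alternative run, and none of the 3 genes passed the test.

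Among the subunits, Rel (NCBI gene 19696, chromosome 11 from 23736847 to 23770969) encodes c-Rel, the subunit most tied to lymphocyte activation. It stood at 493 and 324 CPM on the control diet and at 657 and 607 CPM on the high-fiber diet. Both high-fiber libraries were higher, but the gap between the control mice was wider than the gap from control library 1 to high-fiber library 1 (0.63 ± 0.26, 95% interval from 0.010 to 1.25, edgeR adjusted p = 0.557). Without control library 2 its log2 fold change was 0.36. Nfkb1, which encodes the p105 precursor of p50, stood at 585 and 428 CPM against 636 and 628 CPM, also without overlap (0.32 ± 0.23).

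Rela, the main activating subunit of the canonical arm, stood at 223 and 121 CPM on the control diet and at 338 and 115 CPM on the high-fiber diet. In both diets library 1 was the higher, and the diets overlapped in full (0.40 ± 0.52). The 2 genes of the non-canonical dimer were low in a single mouse. Nfkb2 stood at 195 and 156 CPM on the control diet and at 243 CPM in high-fiber library 1, but at 39.7 CPM in high-fiber library 2. Relb showed the same order, with 167, 138, 173 and 50.4 CPM. Reads of Nfkb2 may be shared with Psd and 4833438C02Rik, which overlap it.

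Per kilobase of exon, Nfkb1 held 30.7% to 35.7% of the summed subunit level in control libraries 1 and 2 and high-fiber library 1, and 49.4% in high-fiber library 2. Rel held 14.9% to 17.5% in the same 3 libraries and 26.4% in high-fiber library 2. Nfkb2 held 11.2% to 12.7% in those 3 libraries and 3.05% in high-fiber library 2, and Relb 15.6% to 21.4% and 7.41%. Rela held 15.3% (control library 2) to 24.8% (high-fiber library 1) in those 3 libraries and 13.7% in high-fiber library 2. Its share in high-fiber library 2 was thus near that in control library 2. In the shares of Nfkb1, Rel, Nfkb2 and Relb, but not of Rela, high-fiber library 2 stood apart from the other 3 libraries. With that library left out, the log2 fold change of Nfkb2 went from -0.29 to 0.46 and that of Relb from -0.43 to 0.18.

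The same library was the lowest of the 4 for 23 of the 36 genes (63.9%), against 31.8% of tested genes. It was lowest for all 6 I-kB genes and all 3 genes of the A20 class. Against high-fiber library 1 it was at least 2-fold lower for 6 of the 36 genes, namely Nfkb2, Rela, Relb, Bcl3, Irak1 and Irak4. That count was near the background, since 17.3% of tested genes were lower by that measure.

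**Figure D3:**
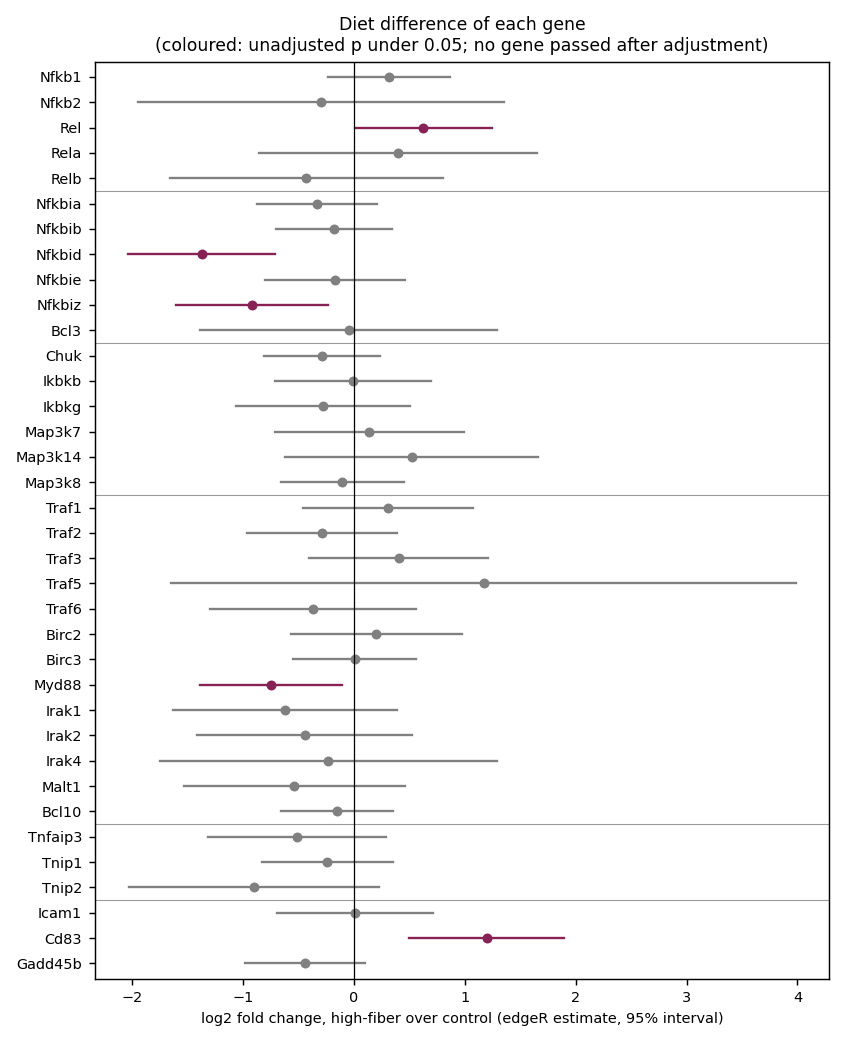
Log2 fold change of each of the 36 genes (high-fiber over control, edgeR estimate) as a point with its 95% interval, with genes in rows grouped by class and colour for an unadjusted p under 0.05. The intervals of Nfkbid, Nfkbiz and Myd88 lie below 0 and those of Cd83 and Rel above it, and the other 31 include 0.

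Adaptors and ubiquitin ligases carry signals from receptors to IKK. Myd88 (NCBI gene 17874, chromosome 9 from 119335934 to 119340018) stood at 175 and 141 CPM on the control diet and at 108 and 79.3 CPM on the high-fiber diet. Both high-fiber libraries were below both controls (-0.75 ± 0.27, 95% interval from -1.39 to -0.11, edgeR adjusted p = 0.496). Irak1, a kinase recruited by Myd88, stood at 93.9 and 62.5 CPM against 69.0 and 31.5 CPM with overlap (-0.62 ± 0.42). Irak2 ranged from 29.9 to 61.2 CPM and Irak4 from 6.33 to 26.5 CPM over the 4 libraries, both with overlapping diets.

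Of the TRAF ligases and scaffolds, only Traf3, a brake on the non-canonical kinase, had diets without overlap, at 32.9 and 53.0 CPM against 57.8 and 54.4 CPM (0.40 ± 0.34). Traf1, itself an NF-kB target, ranged from 129 to 234 CPM, Traf2 from 121 to 188 CPM and Traf6 from 83.4 to 187 CPM. Traf5 was scarce, whose counts were 0 and 98 in the control mice and 110 and 106 in the high-fiber mice. Birc2 and Birc3, neighbouring genes for related ubiquitin ligases, both had overlapping diets. Birc2 ranged from 85.1 to 156 CPM, and Birc3 was at 467 ± 97.1 and 472 ± 34.2 CPM (SD over 2 mice), with a 95% interval of its log2 fold change from -0.54 to 0.56. Malt1 and Bcl10, which link antigen receptors and G protein-coupled receptors to IKK, had log2 fold changes of -0.53 ± 0.42 and -0.15 ± 0.21. Bcl10 had the smallest SE of the class, with 192 and 186 CPM on the control diet and 166 and 175 CPM on the high-fiber diet.

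None of the 6 kinase genes lay at an unadjusted p under 0.05. The IKK complex consists of the kinases encoded by Chuk and Ikbkb and the scaffold encoded by Ikbkg. Chuk stood at 183 and 213 CPM against 165 and 160 CPM without overlap (-0.29 ± 0.22). Ikbkb was at 148 ± 15.7 and 146 ± 49.6 CPM and the sign of its fold change turned with RLE scaling. Ikbkg ranged from 39.4 to 61.8 CPM, and its reads may be shared with G6pdx and Fam3a, which overlap it. Upstream of IKK, Map3k7, which encodes TAK1, ranged from 46.4 to 81.5 CPM and Map3k14, the kinase of the non-canonical arm, from 13.5 to 36.5 CPM, both with overlapping diets. Map3k8, which encodes TPL2 and joins NF-kB to MAP kinase signalling, was the most abundant of these kinases per kilobase of exon and stood at 641 and 679 CPM against 518 and 711 CPM.

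Of the 3 induced surface and stress genes, Cd83 (NCBI gene 12522, chromosome 13 from 43785112 to 43803133) was at 415 and 247 CPM on the control diet and at 708 and 815 CPM on the high-fiber diet. Both high-fiber libraries were above both controls (1.20 ± 0.29, 95% interval from 0.50 to 1.89). Its adjusted p was 0.447 with edgeR and 0.00818 with DESeq2. Icam1, an adhesion molecule and a standard NF-kB target, was at 164 ± 23.6 and 165 ± 55.2 CPM, and the sign of its fold change turned without scaling factors. Gadd45b, an anti-apoptotic stress gene, stood at 3310 and 2951 CPM against 2552 and 2068 CPM, without overlap and in the opposite direction to Cd83 (-0.44 ± 0.23, edgeR adjusted p = 0.667).

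Cd83 is also made by activated B cells and dendritic cells. Markers of B and plasma cells summed to 156 and 39.1 CPM on the control diet and to 342 and 1226 CPM on the high-fiber diet, with all 8 of the list detected in some library and 5 of 5 tested genes above 0 in log2 fold change. All 5 had both high-fiber libraries above both controls, which 18.5% of all tested genes did. Of the 5, 4 were higher at an unadjusted p under 0.05 by edgeR, against 4.70% of all tested genes, and 0 passed after adjustment. The marker sum was mainly Igkc, Igha and Jchain, while Ms4a1, a surface gene of B cells, had 2, 1, 1 and 0 counts. Markers of macrophages, monocytes and dendritic cells summed to 130 and 273 CPM against 311 and 342 CPM, with 8 of 9 detected and 6 of 8 tested above 0. Itgax, a defining gene of dendritic cells, had 0 counts in all libraries. The part of these cells in the Cd83 values was not tested.

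Other genes of the pathway were taken from 4 lists by class, of which 0 genes passed edgeR's test after adjustment. Among 21 tested receptors and receptor-side adaptors, an unadjusted p under 0.05 was found for 2 higher and 0 lower genes (median 0.20). These were 9.52% and 0% of the list, against 4.70% and 4.10% of tested genes. Tnfrsf4, which encodes the costimulatory receptor OX40, stood at 4.67 and 6.48 CPM on the control and at 25.8 and 28.8 CPM on the high-fiber diet (2.32 ± 0.50, edgeR adjusted p = 0.447), and DESeq2 called it higher (adjusted p = 0.00254). Il1rap, the co-receptor shared by the IL-1 and IL-33 receptors, stood at 16.7 and 9.86 CPM against 31.0 and 40.0 CPM. Prkcq, a kinase of antigen receptor signalling, had a log2 fold change of -0.70 ± 0.29.

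Among 18 tested brakes outside the 36 genes, an unadjusted p under 0.05 was found for 2 higher genes and 1 lower gene, with a median of -0.026. These were 11.1% and 5.56% of the list, against 4.70% and 4.10% of tested genes. Irak3, an inactive kinase that restrains Myd88 signalling, stood at 167 and 135 CPM on the control diet and at 325 and 309 CPM on the high-fiber diet. It was higher in both high-fiber libraries (1.07 ± 0.22), with an adjusted p of 0.447 by edgeR and 0.00210 by DESeq2. Otulin, which removes linear ubiquitin chains, stood at 57.0 and 22.9 CPM against 112 and 134 CPM (1.59 ± 0.42), and DESeq2 called it higher (adjusted p = 0.0292). Itch, a ubiquitin ligase that works with A20, stood at 118 and 124 CPM against 74.6 and 65.9 CPM (-0.78 ± 0.24). So brakes lay on both sides, with Nfkbid and Itch lower and Irak3 and Otulin higher.

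Of 16 tested kinase partners and ubiquitin chain enzymes, 1 was higher at an unadjusted p under 0.05 (6.25%, against 4.70% of tested genes). This was Tank, a scaffold that binds TRAF proteins and IKK-related kinases, at 151 and 156 CPM against 240 and 269 CPM (0.73 ± 0.21, edgeR adjusted p = 0.447). Tab2, the ubiquitin-binding partner of TAK1, and Ikbke, an IKK-related kinase, had log2 fold changes of -0.63 ± 0.27 and -0.57 ± 0.39.

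Among 30 tested further targets of NF-kB, an unadjusted p under 0.05 was found for 3 higher and 3 lower genes, with a median of -0.064. Each direction held 10% of the list, against 4.70% (higher) and 4.10% (lower) of tested genes. Il2, a lymphocyte growth factor, stood at 141 and 118 CPM on the control and at 56.6 and 71.0 CPM on the high-fiber diet (-1.03 ± 0.26, edgeR adjusted p = 0.447). Ltb, a ligand of the non-canonical arm, stood at 220 and 348 CPM against 148 and 157 CPM (-0.89 ± 0.28). Ccl5, a chemokine of low level here, stood at 1.62 and 0.572 CPM against 4.36 and 10.99 CPM. The induced genes of the pathway thus held values on both sides of 0. T cells also make Il2 and Prkcq, and T cell markers summed to 474 and 520 CPM on the control diet and to 337 and 479 CPM on the high-fiber diet. Of 8 such markers 6 had counts, and Cd8a and Cd5 had 0 in all libraries. Of those tested, 5 of 5 had log2 fold changes below 0 (median -0.85), against 51.2% of all tested genes. DESeq2 called 1 of them lower, against 0.635% of the genes it tested. The sum was mainly Lat, while Cd3e, a subunit of the T cell receptor complex, stood at 5.79 and 13.2 CPM against 1.21 and 5.30 CPM. The part of these cells in the Il2 and Prkcq values was not tested.

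**Figure D4:**
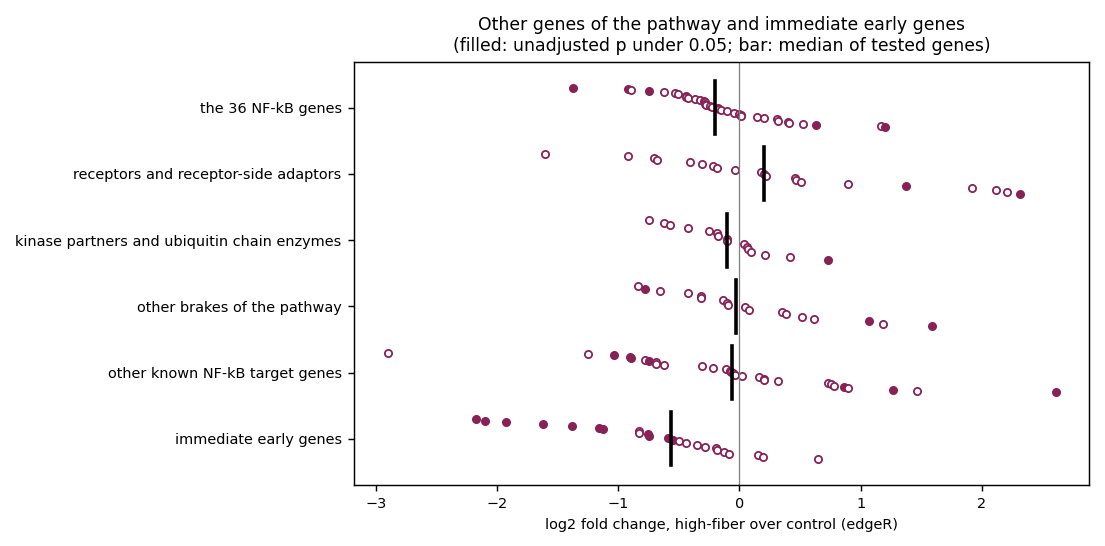
Log2 fold change (high-fiber over control, edgeR) of every tested gene, as 1 point each, for the 36 NF-kB genes, for 4 lists of other pathway genes and for immediate early genes, with filled points for an unadjusted p under 0.05 and a bar at the median of each list. The median of immediate early genes is -0.57, that of the 36 genes -0.20 and that of the receptors 0.20.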

How the data were processed

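The deposited values are whole-number read counts per NCBI gene identifier, not normalized. CASAVA 1.8.2, STAR 2.3.0 and mm10 are named, without roles, in the submitters' processing notes. How reads were assigned to genes, and whether by strand, is not given in the sources used here; reads of overlapping genes could be shared. Sorted cells went into a Clontech SMARTer low-input library kit, per the labels' protocols, which amplifies cDNA by PCR.

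Symbols came from RefSeq for GRCm38.p6 (25275 of 27179 identifiers matched; 0 value columns lacked a sample). The counts were fitted in R 4.3.3 with edgeR 4.0.16: filterByExpr, TMM scaling, diet as the only term, estimateDisp, glmQLFit with legacy=FALSE and robust off (legacy=TRUE is this release's default) and glmQLFTest, with Benjamini-Hochberg adjustment over all 11841 tested genes. The common coefficient of biological variation came to 0.607 on 2 residual degrees of freedom. DESeq2 1.42.0 and limma-voom 3.58.1 were alternatives. Levels between genes were compared as CPM per kilobase of the joined exons of GENCODE M21 protein-coding transcripts. Library gaps of at least 2-fold were taken after adding 0.5 CPM. Of the 36 genes, those at an unadjusted p under 0.05 and the 10 of smallest p are given with values in each library, and others were added as examples of their class; from each other list of the pathway up to 3 genes of smallest p are named. Single genes of the immediate early and cell type lists are examples. The rule for the 36 genes takes no measured value, but these genes and all lists were set with earlier results of these data known. Floors of 3 counts cover only counting error, because PCR copies are no independent molecules.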

Additional observations from a re-analysis of the deposited data

How the results depend on the processing

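Across 15 alternatives the log2 fold changes of the 10 genes of smallest p kept their sign. These genes were picked by p in the same libraries, so a kept sign was likely beforehand. Among the rest, some turned sign with 1 library left out, such as Rela, Nfkb2, Relb and Bcl3, while Nfkb1 and Chuk did not. Unadjusted p stayed under 0.05 in all 15 for Nfkbid (-1.68 to -1.11) and Cd83 (0.87 to 1.63), in 14 for Nfkbiz, 12 for Myd88 and 11 for Rel. DESeq2 called 2 of the 36 genes after adjustment, and the other alternatives called 0. With legacy=TRUE 1 gene was higher at an unadjusted p under 0.05, not 2. Without 1 library each, 1 to 2 were higher and 1 to 10 lower by that measure; the 10 came without high-fiber library 1 and the 1 without control library 1, where 6.55% and 1.98% of all tested genes were lower. Over the 4 fits 1.82% to 6.12% of all tested genes were higher. The median of the 36 genes lay between -0.37 (without high-fiber library 1) and -0.063 (without high-fiber library 2) in those fits. Over all genes, 4 passed in the reported fit, 0 without a filter, 9 with 5 CPM in at least 2 libraries, 238 with DESeq2, 0 with limma-voom, 0 with legacy=TRUE, and 0 to 1 without 1 library. With library number as a replicate block 0 genes passed, and of the 36 genes an unadjusted p under 0.05 was again found for 2 higher and 3 lower. Same-numbered libraries did not deviate together (correlation 0.041 over genes). With 2 mice per diet this cannot show whether the numbers pair mice, and library 1 had the higher total in both diets.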
